A study of Mus musculus with 6 samples.

Results

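The airway epithelial lineage genes followed here were 10 of the 23238 gene symbols in the count tables. They were the transcription factors Sox2, Sox9, Nkx2-1, Foxa1, Foxa2, Foxj1, Elf3 and Trp63, the basal cell keratin Krt5, and the membrane protein Prom1. They were selected on their symbols with the folds and adjusted p-values of PM over PBS in these same libraries known, those of Sox2 and Prom1 among the genes already called. Their changes are therefore given as descriptions, and an adjusted p-value printed for one of them says where it lay in a fit over all genes and supports nothing further. RNA sequencing had been done on whole lung tissue of wild-type mice given PM, or PBS (phosphate-buffered saline) as its vehicle, by a route abbreviated i.t., with 3 samples labelled for each group. The title of the series calls the exposure chronic, while the labels leave out dose, duration, age and what PM stands for. PBS replicates 1 and 2 had the same value in each of 23282 entries, so the pair was counted as 1 sample, leaving 3 PM libraries and 2 PBS libraries. The labels do not tell whether libraries are from different mice, and the p-values cover no more than the spread among these 5.

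In the mouse lung, Nkx2-1 marks all epithelium that arises from the foregut, and the forkhead factors Foxa1 and Foxa2 open chromatin for lung genes alongside it. Sox2 marks the conducting airways and their progenitors, while Sox9 marks the distal tips of the embryonic lung and, in adults, cartilage and glands. Foxj1 switches on the genes of motile cilia, Trp63 and Krt5 define basal stem cells, Elf3 is an ETS factor of differentiating epithelium, and Prom1 (CD133) is a glycoprotein of apical membrane protrusions that is also used as a progenitor marker.

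The promoters of 4 members are shown so that the sequences of 3 genes with higher means in PM lung, Sox2, Prom1 and Elf3, can be set beside that of Foxa1, whose mean was not higher. Each window covers 250 bases before and 50 bases from the RefSeq transcription start in GRCm38.p6, read 5′ to 3′ on the strand of the gene, with capitals marking every match to the motifs searched. The Sox2 window is chr3:34649745-34650044 on the plus strand. On the minus strand lie those of Prom1 at chr5:44101687-44101986, Elf3 at chr1:135258423-135258722 and Foxa1 at chr12:57546062-57546361. The Foxa1 and Prom1 windows lie inside their genes, which begin at 57548029 and 44102047 on that strand.
Sox2: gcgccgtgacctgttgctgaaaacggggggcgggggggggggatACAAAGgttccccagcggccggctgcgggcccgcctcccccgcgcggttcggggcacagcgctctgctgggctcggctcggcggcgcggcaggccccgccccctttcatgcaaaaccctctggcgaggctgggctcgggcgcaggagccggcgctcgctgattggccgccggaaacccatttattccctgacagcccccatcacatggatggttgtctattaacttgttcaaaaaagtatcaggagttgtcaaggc
Prom1: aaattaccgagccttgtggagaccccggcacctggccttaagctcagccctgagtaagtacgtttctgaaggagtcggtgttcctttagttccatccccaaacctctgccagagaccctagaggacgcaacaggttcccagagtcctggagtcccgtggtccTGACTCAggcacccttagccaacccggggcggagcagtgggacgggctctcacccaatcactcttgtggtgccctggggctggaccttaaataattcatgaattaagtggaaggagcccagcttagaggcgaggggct
Elf3: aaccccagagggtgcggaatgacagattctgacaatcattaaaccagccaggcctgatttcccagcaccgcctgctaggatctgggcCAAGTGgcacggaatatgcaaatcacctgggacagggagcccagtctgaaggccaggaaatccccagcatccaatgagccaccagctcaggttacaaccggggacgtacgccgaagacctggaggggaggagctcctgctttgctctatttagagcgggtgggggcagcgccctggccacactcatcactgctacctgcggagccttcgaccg
Foxa1: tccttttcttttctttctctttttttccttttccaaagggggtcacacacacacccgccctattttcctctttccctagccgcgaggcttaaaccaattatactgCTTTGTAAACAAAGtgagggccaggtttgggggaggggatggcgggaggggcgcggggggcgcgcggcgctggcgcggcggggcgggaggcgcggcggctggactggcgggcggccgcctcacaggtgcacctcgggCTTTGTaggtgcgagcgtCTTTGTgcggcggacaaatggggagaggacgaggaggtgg

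Both strands were searched for TGTTTAC (forkhead), ACAATG and ACAAAG (SOX), CACTTG (NKX2-1), TGACTCA (AP-1), TGACNNNGC (antioxidant response element), GCGTG (the core bound by the aryl hydrocarbon receptor) and a STAT6-type motif. The Sox2 window held ACAAAG from 206 to 201 bases before the start, a motif found in 18.7% of all 32851 RefSeq windows. The shown Prom1 window held TGACTCA from 88 to 82 bases before its start, against 5.20% of all windows, and Elf3 held CACTTG on the opposite strand from 163 to 158 bases before, against 13.6%. A further RefSeq start of Prom1, with its window at chr5:44094719-44095018, had no TGACTCA and held TGACNNNGC on the opposite strand from 79 to 71 bases before, against 12.4%. Foxa1 held a forkhead match overlapping 2 of its 4 ACAAAG matches, where 3.65% of windows hold the forkhead motif. Among windows not shown, each of Foxa2 held GCGTG, against 32.4% of all windows, and that at chr2:148045415-148045714 also held ACAAAG. The Krt5 window held TGACNNNGC, and that of Nkx2-1 held no match. Windows were available for 7 of the members, and not for Sox9, Foxj1 and Trp63. ACAATG and the STAT6-type motif matched 0 of the 10 member windows, against 12.6% and 6.95% of all windows. The Sox2, Elf3 and Foxa1 windows consisted of 66.3%, 59.0% and 62.3% G and C, that of Prom1 of 57.0%, and the median window of 52.7%. These matches describe letters in the windows and say nothing of whether a factor binds there.

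The libraries held 7410200 to 8798953 counts in PM and 7660937 and 8827202 in PBS, and levels are given as CPM, the count relative to the library's total, after TMM scaling (trimmed mean of M values). Lung epithelium was represented by Scgb1a1, the club cell secretoglobin, at 15500 to 30526 CPM in PM and 19966 and 20448 CPM in PBS, and by Ager, of alveolar type 1 cells, at 2368 to 2569 CPM in PM and 3220 and 3266 CPM in PBS. Rn45s, the ribosomal RNA precursor, took 15.7% to 25.4% of counts in PM and 16.3% and 18.2% in PBS. In whole tissue, fewer cells of a type and less RNA per cell cannot be told apart.

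Sox2 and Prom1, the airway progenitor factor and the apical membrane glycoprotein, stood higher in every PM library than in either PBS library. Sox2 had 209, 241 and 234 counts in PM replicates 1, 2 and 3, or 24.4, 34.5 and 29.5 CPM, against 100 and 105 counts in PBS replicates 1 and 3, or 11.6 and 13.0 CPM. The lowest PM library thus stood well above both PBS libraries, and the PBS values were close to each other. The fold was 2.40, or 1.26 ± 0.21 SE on the log2 scale, and the Benjamini-Hochberg adjusted p over 14057 genes was 0.0379 in edgeR's quasi-likelihood fit. Sox2 lies on chromosome 3 at 34649995 to 34652461 in GRCm38, within an intron of the long noncoding Sox2ot. Sox2ot had 0 counts in every library but PM replicate 3, which had 1.

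Prom1 had 206, 318 and 304 counts in PM replicates 1, 2 and 3, or 24.1, 45.6 and 38.3 CPM, against 69 and 89 counts in PBS replicates 1 and 3, or 8.0 and 11.0 CPM. Its groups did not overlap either, and PM replicate 1 was the lowest of the PM libraries for Prom1 as for Sox2. The fold was 3.78, or 1.92 ± 0.29 SE on the log2 scale, and its edgeR p was likewise 0.0379 after Benjamini-Hochberg adjustment. By unadjusted p, Sox2 ranked 21 and Prom1 ranked 25 of the 14057 genes. Prom1 lies on chromosome 5 at 43993621 to 44102047, and 424 of its exon bases are shared with Gm16401, an antisense gene not counted in these tables. Strand use in the counting is not stated, so whether reads of that antisense gene were counted with those of Prom1 is not known.

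Of the 10 members, 8 passed the filter on low counts, and 2 of the 8 were called higher and 0 called lower (edgeR's quasi-likelihood test). Over all tested genes 0.142% were called higher and 0.0854% called lower, or 0.228% in either direction. By edgeR's unadjusted p, 6 of the 8 were higher and 0 lower at a threshold of 0.05, against 7.26% and 6.05% of all genes. For 5 of the 8 the lowest PM library exceeded the highest PBS library, against 15.5% of genes, and for 1 the highest PM library was under the lowest PBS library, against 16.1%. Because the members were chosen with this contrast known, the shares are set side by side and nothing is read from them. The median log2 fold of the 8 was 1.01 and that of all tested genes 0.01.

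**Figure D1:**
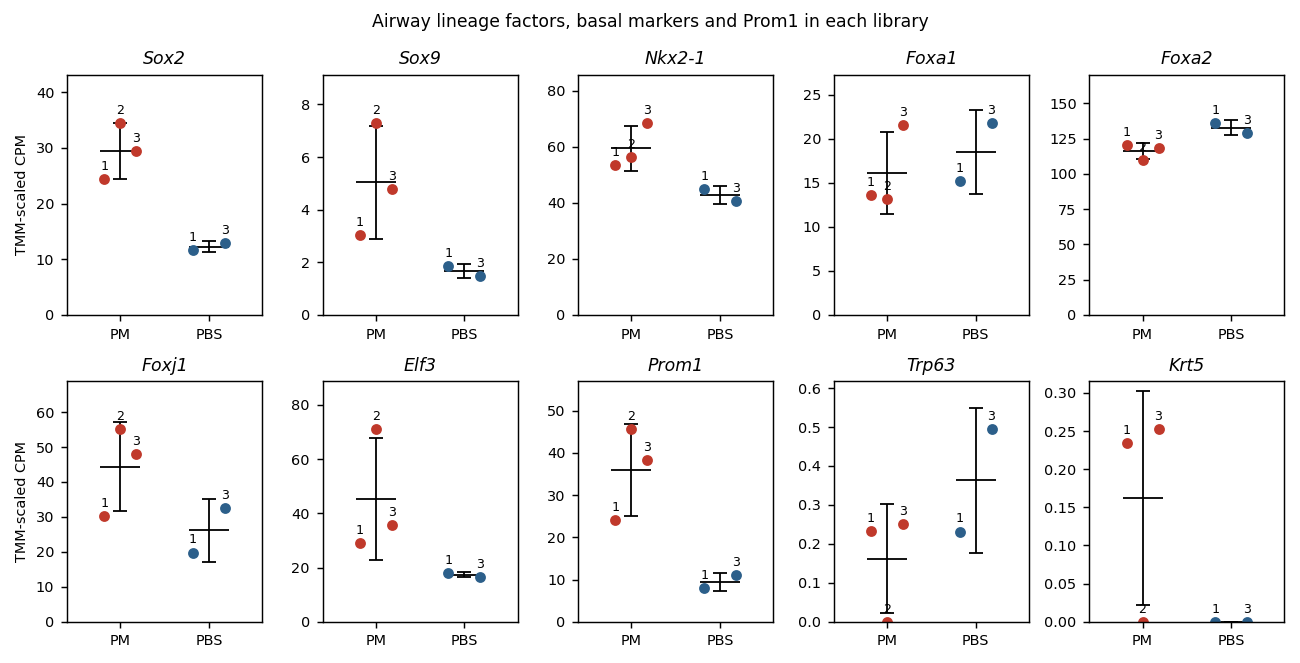
Scaled CPM of each of the 10 genes in 3 PM and 2 PBS libraries, 1 point per library with its replicate number, and bars for mean ± SD; every axis starts at 0 and has its own range. Sox2, Sox9, Nkx2-1, Elf3 and Prom1 lie higher in all PM libraries, Foxa2 lower in all of them, and Trp63 and Krt5 stay under 0.5 CPM.

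The ETS factor Elf3 and the distal tip factor Sox9 had folds of a like size but more spread among PM libraries, and edgeR called neither. Elf3 stood at 28.9, 70.9 and 35.8 CPM in PM replicates 1, 2 and 3 and at 17.96 and 16.7 CPM in PBS replicates 1 and 3. The groups did not overlap, but PM replicate 2 alone had about as much as the other PM libraries together. The log2 fold of Elf3 was 1.38 ± 0.42 SE, (edgeR, Benjamini-Hochberg adjusted p = 0.245), and it was 0.90 without PM replicate 2 (adjusted p = 0.0532). Elf3 was called by DESeq2 (adjusted p = 0.00417) and, in edgeR, with all 6 tables as deposited (adjusted p = 0.0462), with library sizes from pan-epithelial counts (1.59e-05) and with replicate number as a block (0.0124). With all 6 tables, PBS replicate 1 entered again as replicate 2, so that p-value counts a repeated library and cannot be relied on. In the block fit PM replicate 2, alone in its number, had no part in the fold, which is therefore close to that without this library. Elf3 shares 162 exon bases with Gm26642, an antisense gene not counted in these tables.

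Sox9 was scarce, with 26, 51 and 38 counts in PM replicates 1, 2 and 3 against 16 and 12 counts in PBS replicates 1 and 3. That made 3.04, 7.31 and 4.79 CPM in PM and 1.85 and 1.48 CPM in PBS, again with no overlap. The log2 fold was 1.58 ± 0.51 SE (edgeR, Benjamini-Hochberg adjusted p = 0.194), so its size is known less closely than that of Sox2. Of the cartilage genes listed, Col2a1, Col9a1, Col9a2 and Matn1, which encode matrix proteins of cartilage, had 0 counts in every library. Acan, the cartilage proteoglycan, had 1 count in all, in PBS replicate 3. Chad, also listed for club cells, stood at 36.7, 61.6 and 24.5 CPM in PM and at 13.0 and 12.8 CPM in PBS.

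Foxj1, the ciliated cell factor, was higher on average in PM, but its groups overlapped. It stood at 30.2, 55.0 and 48.0 CPM in PM replicates 1, 2 and 3 and at 19.8 and 32.6 CPM in PBS replicates 1 and 3. PM replicate 1 was thus below PBS replicate 3, and the PBS libraries themselves stood far apart. The log2 fold was 0.76 ± 0.30 SE (edgeR, Benjamini-Hochberg adjusted p = 0.340).

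Nkx2-1, the lung identity factor, stood at 53.4, 56.3 and 68.6 CPM in PM replicates 1, 2 and 3 and at 45.0 and 40.6 CPM in PBS replicates 1 and 3. Its groups did not overlap, and the log2 fold of 0.47 ± 0.15 SE did not pass (edgeR, Benjamini-Hochberg adjusted p = 0.191). Of the thyroid genes listed, because Nkx2-1 is also a thyroid factor, Pax8 and Foxe1 had 0 counts in every library, and Tg, thyroglobulin, stood at 1.64, 0.717 and 4.16 CPM in PM and 1.27 and 1.98 CPM in PBS. Slc26a4, the anion exchanger pendrin, which airway epithelium also makes, stood at 28.0, 88.4 and 23.6 CPM in PM and 3.71 and 2.59 CPM in PBS, with a log2 fold of 3.87 ± 0.97 SE (edgeR, Benjamini-Hochberg adjusted p = 0.258). With it the summed level of the list was 30.2, 90.0 and 29.6 CPM in PM and 6.49 and 4.69 CPM in PBS, and its part in the Nkx2-1 level was not tested.

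The forkhead pioneer factors were the only tested members with a lower mean in PM. Foxa2 stood at 120.6, 109.9 and 118.2 CPM in PM replicates 1, 2 and 3, all below the 136.3 and 128.9 CPM of PBS replicates 1 and 3. The difference was small, with a log2 fold of -0.19 ± 0.11 SE (edgeR, Benjamini-Hochberg adjusted p = 0.501). Foxa1 stood at 13.7, 13.2 and 21.6 CPM in PM and 15.2 and 21.9 CPM in PBS, with overlapping groups and a log2 fold of -0.20 ± 0.26 SE (edgeR, Benjamini-Hochberg adjusted p = 0.805). Its sign turned without PBS replicate 3, to 0.09.

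The basal cell genes were at the limit of detection. Trp63 had 2, 0 and 2 counts in PM replicates 1, 2 and 3 and 2 and 4 counts in PBS replicates 1 and 3. Krt5 had 2, 0 and 2 counts in PM and 0 in both PBS libraries. A count of 0 allows up to 3 counts, or 0.351 to 0.430 scaled CPM in PM and 0.348 and 0.370 scaled CPM in PBS, a floor that covers counting error only. Neither gene was tested, no fold is given, and a difference was not detectable at this depth. Of the 15 further basal cell genes listed, 10 were tested and 0 called. Krt14, a basal keratin, stood at 0.143 to 0.378 CPM in PM and 0.348 and 0.123 CPM in PBS, and Krt17 had 0 counts. Snai2, a transcription factor that is also made by mesenchymal cells, had a log2 fold of -0.68 ± 0.17 SE (edgeR, Benjamini-Hochberg adjusted p = 0.115). Sfn, a 14-3-3 protein, and Dapl1 had log2 folds of 0.60 ± 0.30 SE and -0.49 ± 0.30 SE. In the list of squamous and oesophageal epithelium 1 of 12 genes was tested, the keratin Krt10, with a log2 fold of -0.11 ± 0.34 SE.

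**Figure D2:**
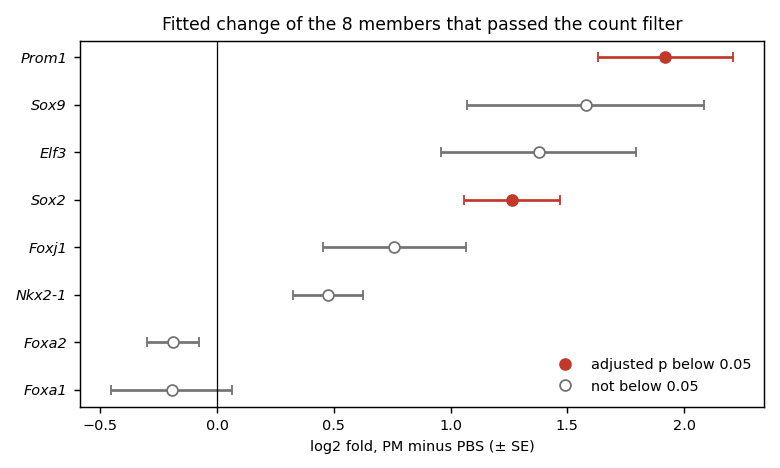
Log2 fold of PM over PBS with its standard error for the 8 genes that passed the count filter, from edgeR's fit over 14057 genes. Filled points, Prom1 at 1.92 and Sox2 at 1.26, have an adjusted p below 0.05; Sox9 and Elf3 lie between them with wider errors, and Foxa1 and Foxa2 lie just below 0.

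Levels of different genes were compared per kilobase of exon. In PM, Foxa2 came first with 49.0 ± 2.36 scaled CPM per kb (SD, n = 3), above Nkx2-1 at 20.9 ± 2.84, Elf3 at 20.4 ± 10.2, Foxj1 at 16.9 ± 4.89 and Sox2 at 14.3 ± 2.46. Prom1 at 5.02 ± 1.52, Foxa1 at 4.85 ± 1.41 and Sox9 at 1.22 ± 0.519 followed. From Nkx2-1 to Sox2 each neighbour overlapped the next over libraries, as did Prom1 and Foxa1. In PBS, Foxa2 again came first with 55.9 ± 2.20 scaled CPM per kb (SD, n = 2), followed by Nkx2-1 at 15.1 ± 1.08, Foxj1 at 9.99 ± 3.45, Elf3 at 7.81 ± 0.412, Sox2 at 5.97 ± 0.473, Foxa1 at 5.57 ± 1.42, Prom1 at 1.32 ± 0.295 and Sox9 at 0.403 ± 0.0637. There Foxj1 overlapped Elf3 and Sox2 overlapped Foxa1, while Prom1 lay below Foxa1 in both libraries.

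The general epithelial genes listed beside the members were nearly level between the groups. The summed level of the 20 pan-epithelial genes was 1516, 1841 and 1602 CPM in PM replicates 1, 2 and 3 and 1755 and 1525 CPM in PBS replicates 1 and 3, and their median log2 fold was 0.15, with 0 of 20 called. That median was 0.33 without PBS replicate 1 and -0.01 without PBS replicate 3. Epcam, an adhesion protein of epithelia, stood at 60.6 ± 2.12 CPM in PM (SD, n = 3) and 46.8 ± 0.0687 CPM in PBS (SD, n = 2), with a log2 fold of 0.37 ± 0.13 SE (edgeR, Benjamini-Hochberg adjusted p = 0.219). Spint2, a protease inhibitor, and Tjp3, of tight junctions, had log2 folds of 0.45 ± 0.16 SE and 0.43 ± 0.19 SE. Per 1000 CPM of that sum, Sox2 stood at 16.1, 18.8 and 18.4 CPM in PM and 6.60 and 8.50 CPM in PBS. On the same scale Prom1 stood at 15.9, 24.8 and 23.9 CPM in PM and 4.56 and 7.20 CPM in PBS. Neither gene's groups overlapped when set against the pan-epithelial sum, and how much of that sum came from airway cells was not tested. With library sizes taken from these genes, the log2 folds were 1.24 for Sox2, 1.88 for Prom1 and 1.33 for Elf3, and all 3 passed edgeR's test (Benjamini-Hochberg adjusted p = 0.000399, 1.51e-09 and 1.59e-05). That scaling raised the number of all genes called to 372, or 300 higher and 72 lower. For Sox2 its smaller p came with a smaller log2 fold and a larger SE, 1.24 ± 0.26 against 1.26 ± 0.21 with TMM. These p-values are therefore not read as stronger support.

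Genes of the cilium, which Foxj1 controls, stood higher in PM as a list without any member being called. Of 22 tested genes of ciliated cell structure, 14 had an unadjusted p below 0.05 and a higher level in PM, 0 a lower one, 13 did not overlap and stood higher in PM, and the median log2 fold was 0.65. Over all tested genes the matching shares were 7.26% and 15.5%. In edgeR's test with Benjamini-Hochberg adjustment, Cfap126 had a log2 fold of 1.05 ± 0.20 SE (adjusted p = 0.0530), Dnah5, an outer dynein arm heavy chain, of 1.17 ± 0.24 (adjusted p = 0.0605) and Tmem212 of 0.92 ± 0.19 (adjusted p = 0.0651). The sum of the list overlapped between the groups, at 1939, 2248 and 2661 CPM in PM and 2090 and 2042 CPM in PBS, since most of it was Sec14l3, also listed for alveolar type 1 cells, at 1393 to 1910 CPM in PM and 1566 and 1559 CPM in PBS. Without Sec14l3 the sum was 546, 748 and 751 CPM in PM and 525 and 483 CPM in PBS. Of the ciliated cell transcription factors 7 of 11 were tested and 0 called. By an unadjusted p under 0.05, 0 were higher and 1 lower, against 7.26% and 6.05% of all genes. Their median log2 fold was 0.44. Without overlap 4 stood higher in PM and 1 lower, against 15.5% and 16.1% of all genes. The lower one was E2f4, which acts with the multiciliogenesis factors, at 15.8, 12.8 and 15.3 CPM in PM and 20.4 and 19.6 CPM in PBS (log2 fold -0.45 ± 0.19 SE). Ccno, a cyclin-like factor of centriole amplification, had a log2 fold of 1.01 ± 0.52 SE, and Rfx3 stood at 18.5 ± 2.72 CPM in PM (SD, n = 3) and 13.5 ± 0.0991 CPM in PBS (SD, n = 2). Mcidas and Gmnc, which start multiciliogenesis, stayed below 1 CPM in every library. How far ciliated cell content moves with Foxj1, Sox2 or Prom1 was not tested.

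Other transcription factors of airway epithelium stood level on the whole, with 28 tested, 0 called and a median log2 fold of 0.00. At an unadjusted p below 0.05, 2 were higher and 2 lower, against 7.26% and 6.05% of all tested genes. Sox21, a SOX factor of airway epithelium, stood at 1.40, 1.29 and 2.14 CPM in PM and 0.232 and 0.123 CPM in PBS, with a log2 fold of 3.07 ± 0.91 SE (edgeR, Benjamini-Hochberg adjusted p = 0.158). With 3 counts over both PBS libraries, the size of its fold is known poorly. Foxa3, a forkhead relative of Foxa1 and Foxa2 that also marks mucous cells, stood at 2.22, 4.59 and 2.27 CPM in PM and 1.04 and 0.370 CPM in PBS. Nfib and Tbx2 were lower, with log2 folds of -0.34 ± 0.11 SE and -0.41 ± 0.14 SE (edgeR, Benjamini-Hochberg adjusted p = 0.188 and 0.209). Ehf, an ETS relative of Elf3, stood at 30.3, 55.8 and 21.6 CPM in PM and 22.3 and 22.2 CPM in PBS, and Elf5 at 8.06, 5.02 and 9.33 CPM in PM and 8.34 and 7.29 CPM in PBS.

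**Figure D3:**
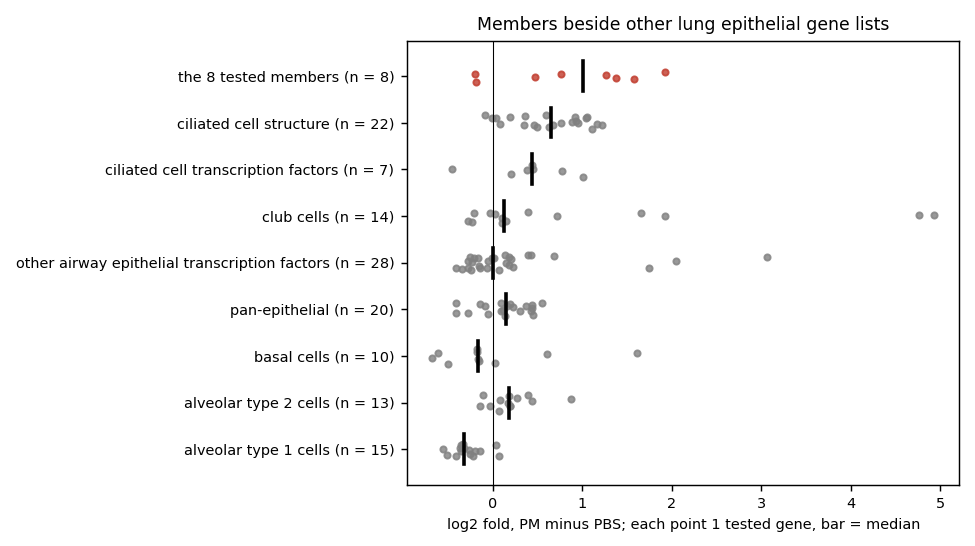
Log2 fold of PM over PBS for each tested gene of the members and of 8 other epithelial lists, with a bar at the median of each. The median was 1.01 for the 8 tested members, 0.65 for ciliated cell structure, 0.13 for club cells and -0.32 for alveolar type 1 cells. Lists not drawn include that of mucous cells, with a median of 4.22.

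Among the cell type lists, club cell genes had a median log2 fold of 0.13 over 14 tested genes with 0 called. Gabrp, a channel subunit, stood at 113 ± 16.1 CPM in PM (SD, n = 3) and 68.3 ± 3.36 CPM in PBS (SD, n = 2), and Scgb3a1, a secretoglobin, at 311, 739 and 351 CPM in PM and 24.1 and 10.2 CPM in PBS (edgeR, Benjamini-Hochberg adjusted p = 0.0530 and 0.158). Alveolar type 1 genes had a median of -0.32 over 15, with 0 called, and for 10 of them every PM library was under both PBS libraries, as for 16.1% of all genes. Gprc5a and Akap5 had log2 folds of -0.56 ± 0.12 SE and -0.51 ± 0.12 SE (edgeR, Benjamini-Hochberg adjusted p = 0.0673 and 0.0991). Alveolar type 2 genes had a median of 0.19 over 13 with 0 called, and the surfactant proteins Sftpd and Sftpa1 and the protease Ctsh had log2 folds of 0.88 ± 0.26 SE, 0.40 ± 0.14 SE and 0.27 ± 0.14 SE. The signs of the club cell and alveolar type 2 medians are not settled. Without PM replicate 3 the club cell median was -0.14, and without PBS replicate 3 the alveolar type 2 median was -0.04. With 1 library left out, the alveolar type 1 median ran from -0.35 without PM replicate 3 to -0.25 without PM replicate 2. In the list of transitional alveolar epithelium 1 of 12 was called higher, the galectin Lgals3, which macrophages also make, with a log2 fold of 0.85 ± 0.13 SE. Clu, clusterin, and Areg, amphiregulin, had log2 folds of 0.60 ± 0.17 SE and 0.90 ± 0.34 SE. The mucous cell list had the highest median, 4.22 over 10, with 0 called and a summed level of 606, 2463 and 201 CPM in PM against 33.0 and 27.4 CPM in PBS. Of its 10 tested genes, 9 stood higher in PM without overlap, against 15.5% of all genes. By edgeR's unadjusted p below 0.05, 6 were higher and 0 lower, against 7.26% and 6.05%. With 1 library left out that median ran from 3.14 without PM replicate 2 to 5.04 without PBS replicate 3. Its smallest p-values were those of Foxa3, of Agr2, a mucin-folding enzyme, and of Bpifb1, a secreted defence protein, with log2 folds of 2.05 ± 0.70 SE, 3.38 ± 1.04 SE and 5.69 ± 1.34 SE. PM replicate 2 held the most of it, as it did of Elf3, and the part of mucous cells in the Elf3 level was not tested.

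Prom2, the other prominin, stood at 0.818, 0.143 and 1.64 CPM in PM and 0.579 and 1.36 CPM in PBS, with a log2 fold of -0.13 ± 0.91 SE, at levels close to the limit of detection. Among the other genes linked to prominin or used with it as progenitor markers, Cd24a stood at 81.6, 141 and 106 CPM in PM and 67.0 and 63.0 CPM in PBS, with a log2 fold of 0.75 ± 0.21 SE. Nes, nestin, and Pdgfrb, a pericyte receptor, had log2 folds of -0.37 ± 0.11 SE and -0.50 ± 0.16 SE. None of the 10 tested genes of that list was called by edgeR, and at an unadjusted p below 0.05 there were 1 higher and 2 lower. Of all tested genes, 7.26% were higher and 6.05% lower at that threshold.

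Across the PM libraries Sox2, Sox9, Foxj1, Elf3 and Prom1 shared one order, highest in replicate 2 and lowest in replicate 1. Nkx2-1 and Foxa1 were highest in replicate 3, and Foxa2 in replicate 1. Over the 5 libraries, and among 10815 named genes of at least 5 CPM, those most like Sox2 by Pearson's r of log2 CPM were Ifngr2 (0.999), Rpl41 (0.998) and Rnaseh2b (0.998). Those most like Prom1 were Cfap44 (0.997), Steap4 (0.997) and Igsf6 (0.995), and those most like Elf3 were Parp11 (0.999), Rab43 (0.999) and Pigr (0.998). Within the gene lists used here, Rsph1, a radial spoke protein of cilia, and Epcam came first for Sox2 (r = 0.993 and 0.992) and for Prom1 (r = 0.985 and 0.980). For Sox9 the most alike were Odf3b, Cxadr and Irf2bp2, for Foxj1 Tceanc, P2rx7 and Sirt6, for Nkx2-1 Vta1, Bace1 and Acsl3, for Foxa1 Lin7c, Mau2 and Sf3b2, and for Foxa2 Fam220a, Nisch and Sh3rf2. With 5 libraries that share the split between groups such values come easily. Of the 10815 genes, 171 (1.58%) had an r above 0.95 with Sox2 and 147 (1.36%) with Prom1.

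The calls of Sox2 and Prom1 rested on both PBS libraries. Without PBS replicate 1 the log2 folds were 1.18 and 1.71 and neither passed (adjusted p = 0.444 for each), and without PBS replicate 3 they were 1.34 and 2.16 (edgeR, Benjamini-Hochberg adjusted p = 0.249 and 0.215). In these fits the lone PBS library is assumed to vary like the PM libraries. Without PM replicate 1 Sox2 did not pass either (log2 fold 1.38, adjusted p = 0.0726), while Prom1 did. By limma-voom both missed the threshold (adjusted p = 0.0548 for Sox2 and 0.0693 for Prom1), and DESeq2 called both along with Elf3. The direction of both folds was the same in each fit.

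**Figure D4:**
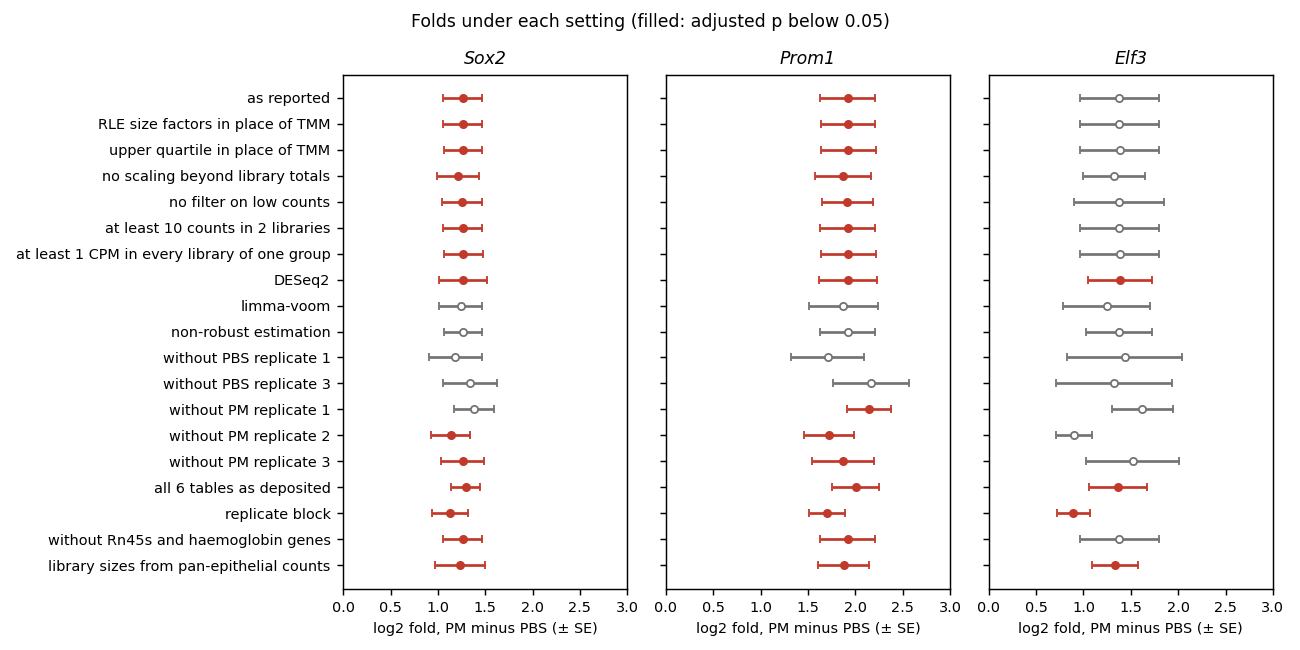
Log2 fold of PM over PBS with its standard error for Sox2, Prom1 and Elf3 under each way of fitting the data, filled where the adjusted p was below 0.05. Sox2 stayed between 1.13 and 1.38 and Prom1 between 1.70 and 2.16, while Elf3 moved between 0.89 and 1.62.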

How the data were processed

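Per the labels' protocols, RNA of lung tissue was isolated with an easy-BLUE kit and made into libraries with Lexogen's SENSE mRNA-Seq kit. Per the submitters' processing notes, TopHat, Cufflinks and the build mm10 were used, but no version, role, counting program, annotation or strand setting is stated there. The authors deposited raw read counts per gene symbol. The members and gene lists were chosen with earlier results of these data known. For each repeated symbol the entry with the most counts was kept, which set aside 44 entries with 0.0246% of counts, and 1 entry with no name was left out. Counts were filtered with filterByExpr, scaled by TMM and tested, PM against PBS, by the robust quasi-likelihood test of edgeR 4.0.16 in R 4.3.3, two-sided, with no covariates and Benjamini-Hochberg adjustment over 14057 genes at 0.05. The SE is the log2 fold divided by the square root of F. The procedure was tested on simulated counts. Lengths came from GENCODE M21 exon unions, coordinates and promoters from RefSeq GRCm38. The rule for named genes took the members, from each list the 3 smallest p-values and every call, and the 3 genes most like a member over all genes and within the lists. Of these, the genes of the Schwann cell and thymic lists and some of those most like a member within the lists are not printed, a choice made after their values were seen. The following were named after their values were seen: Scgb1a1, Krt14, Krt17, Sec14l3, Ehf, Elf5, Prom2, Mcidas, Gmnc, Sox2ot, Rn45s and Acan. So were the cartilage, thyroid, tuft cell, ionocyte and gland genes without counts. Alternatives were other scalings, filters, thresholds and tools (DESeq2 1.42.0, limma-voom 3.58.1), each library left out, the replicate block, all 6 tables, counts without Rn45s and haemoglobin genes, and library sizes from pan-epithelial counts. Protein sequences were not used here.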

Additional observations from a re-analysis of the deposited data

How the results depend on the processing

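Low counts limit Sox9, Trp63 and Krt5. Of 14057 genes 32 were called by edgeR, against 51 without scaling beyond library totals, 275 without a filter on low counts, 206 at an adjusted p below 0.10, 382 by DESeq2, 635 with all 6 tables as deposited and 372 with library sizes from pan-epithelial counts. Leaving out 1 library gave 1 to 427 genes called and 0 to 2 members called higher. Of the members, 2 were called higher, against 0 by limma-voom and 0 with non-robust estimation, where adjusted p was 0.0568 for Sox2 and 0.0524 for Prom1. Elf3 was called as well by DESeq2 (adjusted p = 0.00417), with all 6 tables (0.0462) and with pan-epithelial library sizes. The fit with all 6 tables counted PBS replicate 1 again as replicate 2, so its p-values and calls cannot be relied on. With 1 library left out, the log2 fold of Foxa1 ran from -0.46 without PM replicate 3 to 0.089 without PBS replicate 3. Deviations from the group mean in samples of the same replicate number had a correlation of -0.03 for number 1 and 0.06 for number 3 over genes. With 2 PBS libraries their deviations mirror each other, so these values cannot tell whether the numbers pair the samples. The numbers were not taken to pair them. With the replicate block 353 genes were called, among them Sox2 (log2 fold 1.13), Prom1 (1.70) and Elf3 (0.89). PM replicate 2, the only library of its number there, had no part in those folds. Per kilobase of the longest transcript, Prom1 stood at 8.80 CPM in PM and 2.32 CPM in PBS, and Elf3 came before Nkx2-1 in PM. No member was called lower under any of these settings.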

Other observations

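Rarer airway cell types were thinly measured. Of 10 neuroendocrine genes 4 were tested, with a median log2 fold of 0.47, of 10 tuft cell genes 4 (0.64), of 7 ionocyte genes 3 (-0.20) and of 10 submucosal gland genes 5 (0.61), and 0 were called by edgeR in any of these lists. At an unadjusted p below 0.05, the neuroendocrine list had 1 gene higher and 1 lower, the tuft cell list 2 and 0, the ionocyte list 1 and 1, and the gland list 3 and 2. Over all tested genes the shares were 7.26% higher and 6.05% lower. The neuroendocrine and ionocyte medians changed sign with 1 library left out: the neuroendocrine median was -0.37 without PBS replicate 3, and 1.03 with a filter of 1 CPM in every library of a group, and leaving out PBS replicate 1 gave an ionocyte median of 0.29, leaving out PM replicate 3 one of 0.04. Piezo2, Uchl1 and Nov of the neuroendocrine list had log2 folds of -0.40 ± 0.15 SE, 1.245 ± 0.49 SE and 1.03 ± 0.60 SE. Alox5ap, Ltc4s and Dclk1 of the tuft cell list had log2 folds of 0.52 ± 0.16 SE, 0.77 ± 0.29 SE and 0.84 ± 0.37 SE. In the ionocyte list Cftr, the chloride channel, and Atp6v0d2, a proton pump subunit, had log2 folds of -0.66 ± 0.20 SE and 1.44 ± 0.36 SE, and Stap1 had -0.20 ± 0.46 SE. In the gland list Ltf, lactoferrin, and Acta2, smooth muscle actin, had log2 folds of 3.99 ± 0.67 SE and 0.61 ± 0.17 SE. Foxi1, the defining factor of ionocytes, and the gland genes Dcpp1, Dcpp2, Dcpp3 and Prol1 had 0 counts in every library. The same held for Il25 and Gnat3 of the tuft cell list. Which cells of the lung made the transcripts counted for these lists was not tested.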
